A study of Sus scrofa with 8 samples.

Results

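Glycolysis is the cytosolic pathway that splits glucose into pyruvate with a net gain of ATP, and lactate dehydrogenase turns pyruvate into lactate so that the pathway can run on when little oxygen is used. Several of its enzymes exist as a widely expressed form and a form of mature muscle: enolase 1 (ENO1) and phosphoglycerate mutase 1 (PGAM1) are found in most tissues, while enolase 3 (ENO3, also called beta-enolase) and phosphoglycerate mutase 2 (PGAM2) are the muscle forms. The genes described here were chosen by a rule that refers to their levels across stages and gated cell types, set with earlier results of these counts in view, and are the rows named LDHA, LDHB, ENO1, ENO3, GAPDH, PGK1, ALDOA, PKM, PGAM1 and PGAM2 in the gene lists of all 8 count matrices. Of these 10 names, 8 stood in the matrices among 21301 genes. The rows of ALDOA and PKM carried no symbol and were found by gene ID, so they are described beside the other 8.

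The matrices came from single-cell RNA sequencing of pig embryos. Somite tissue was taken at embryonic day (E) 16, E18 and E21, and myotome, the muscle-forming layer that derives from the somite, at E28, from 2 breeds: Tibetan (ZZ) and a Duroc and Tibetan cross (DZ). Each of the 8 libraries (E16-ZZ to E28-DZ) was a pool of 5 embryos from a single sow and the only library of its stage and breed. E16 and E18 are called early below and E21 and E28 late, which gave 4 early and 4 late libraries, each with 2 of each breed. Within a period the libraries differ in stage and breed, and the change of tissue coincides with E28, so that period, dissected tissue and sow cannot be told apart fully.

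Depth ranged from 39852689 to 57568895 unique molecular identifiers (UMIs) in the cells kept of a library, over 5436 to 10956 cells. The median per cell was 4652 to 6160 UMIs in the early libraries and 3405 to 4519 in the late ones. Depth per cell thus goes with period, and the gates rest on detected markers. E16-ZZ stood apart, since 39.2% of its barcodes were over the limit of 10% mitochondrial UMIs, against 1.05% to 9.15% in the other 7 libraries. A total of 1001 barcodes occurred in more than 1 library. Cells were assigned to 14 gates by marker genes that include none of the enzymes, while 53.2% of cells met no gate and a further 4.72% met several and were left out of the gates. Check markers not used by the gates were at least 2-fold higher in their gate than in the other cells for every measured marker of 11 gates. The exceptions were PRTG in the PAX3+ progenitor gate at a ratio of 1.38, CHRNA1 in the myoblast gate at 1.61, and FABP7 in the neural progenitor gate at 1.72. In the sclerotome gate, NKX3-2 and FOXC2 had very few counts, at 0.076 and 1.29 CPM (scaled counts, defined below). Their ratios, 7.03 and 4.43, are therefore weak checks. The check of the sclerotome gate rests mainly on PAX9, at 43.8 on the same scale and a ratio of 7.13.

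The members' promoters are shown as a description of their sequence, and their part in the levels given below was not tested. In RefSeq, on build Sscrofa11.1, LDHA lies on chromosome 2 (40814163 to 40827284), GAPDH on chromosome 5 (64129678 to 64135194), ENO1 on chromosome 6 (69385879 to 69401664) and ENO3 on chromosome 12 (51954614 to 51959991), all on the minus strand. On the plus strand lie ALDOA on chromosome 3 (18246036 to 18260167), PKM on chromosome 7 (60971807 to 61032780), PGAM1 on chromosome 14 (108822782 to 108832818), PGAM2 on chromosome 18 (48693832 to 48712787) and PGK1 on chromosome X (62187472 to 62210321). The 250 bases upstream of the start of the first curated RefSeq transcript (the gene's own start where there was none) were searched on both strands for ACGTG, the core of the hypoxia response element, for CANNTG, the E-box that myogenic factors such as MYOD1 and MYOG bind, and for the MEF2 motif. An ACGTG that is part of CACGTG matches on both strands and is also a CANNTG. The capitals below mark the match, and each stretch reads 5′ to 3′ on the strand of the gene:
LDHA, chr2:40825388-40825417: cagcccaacccaCACGTgggttcttgcacg
ENO1, chr6:69401680-69401709: cgcgagtgggcgCACGTggcccggctagcg
PGK1, chrX:62187275-62187304: agagggcagcgaCACGTcccaccagtgccc
GAPDH, chr5:64134036-64134065: gcgaggcgagccCACGTcaccccgcccccg
PGAM1, chr14:108822649-108822678: cctccggcgcttACGTGcgctccgtgactg
PKM, chr7:60971761-60971790: tccgaagcggacCACGTggccacggtgccc
ENO3, chr12:51960196-51960225: aggagtggaaTTAAAAATAAggattttatt
PGAM2, chr18:48710388-48710417: tctgctactggcCACCTGccgctgcccatc

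ACGTG or its complement was present in the windows of 6 of the 9 genes searched (LDHA, ENO1, PGK1, GAPDH, PGAM1 and PKM), and in 18.6% of the 19551 windows of protein-coding genes. The window of ENO3 alone among the 9 held the MEF2 motif, which 2.48% of all windows hold. CANNTG was present in 7 of the 9 and in 61.5% of all windows. The windows of all genes were not matched to those of the members in base content. These matches describe letters in a window and not bound sites, and the promoter of LDHB was left out because its row could not be placed with certainty.

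The row named LDHB held very few counts, from 3.91 to 14.4 CPM in whole libraries. CPM are UMIs per 1000000 of a library total that was adjusted by TMM scaling (see the processing section). RefSeq gives the symbol LDHB to 2 loci of this build, a gene of 1 exon on chromosome 2 (12988754 to 12990033) and a gene of 8 exons on chromosome 5 (51810932 to 51831218). The named rows next to LDHB in the gene list (CTNND1, BTBD18, SELENOH, TMX2 and MED19) are all chromosome 2 genes. The gene of 8 exons may be counted in a row without a symbol, which was not identified or used here. The values of this row are therefore given as measured and are no measure of lactate dehydrogenase B as a whole, and no share of LDHA among lactate dehydrogenase transcripts was computed. ALDOA was measured at 16.1 to 43.3 CPM. The counts are of 3′ ends, so the M1 and M2 isoforms of PKM, which differ in an internal exon, could not be told apart.

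In whole libraries, 9 of the 10 rows (the LDHB row among them) were lower at E21 and E28 than at E16 and E18, and PGAM2 was higher. The 8 named rows made up 0.988% to 1.16% of UMIs in the early libraries and 0.444% to 0.600% in the late ones. Because the rule that chose the genes refers to stages and gated cell types, their differences between stages and gates are described without a test. In a whole library, fewer cells of a type and less RNA per cell cannot be told apart.

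LDHA, which makes lactate from pyruvate, was measured at 1159 CPM in the ZZ library of E16 and 820.1 in its DZ library, and at 739 (ZZ) and 607 CPM (DZ) at E18. In the late libraries LDHA stood at 194 (ZZ) and 178 CPM (DZ) at E21, then 238 (ZZ) and 213 CPM (DZ) at E28. The early and late values did not overlap, and the fitted log2 fold change of LDHA, late against early, was -1.99 ± 0.19 (SE), or 3.98-fold lower. Without E16-ZZ the log2 fold change of LDHA was -1.81.

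GAPDH, the NADH-forming dehydrogenase of the pathway, often used as a reference gene, had 7104 (ZZ) and 9003 CPM (DZ) at E16, 6838 and 6644 CPM at E18. The late values of GAPDH were 3758 (ZZ) and 3092 CPM (DZ) at E21, 3052 and 2515 CPM at E28. Its level thus lay at a mean of 7397 ± 1087 CPM (SD, n = 4) early and 3104 ± 509 CPM late, a log2 fold change of -1.25 ± 0.17 (SE). ENO1, which forms phosphoenolpyruvate, went from 2382 ± 323 CPM (SD, n = 4; range 1962 to 2704) to 929 ± 77.3 CPM (855 to 1006).

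PKM, the pyruvate kinase of most tissues, went from 1833 ± 166 to 720.0 ± 97.5 CPM (SD, n = 4 each). PGAM1 went from 468 ± 75.8 to 171 ± 23.2 CPM, and PGK1, the ATP-forming phosphoglycerate kinase, from 199 ± 23.2 to 100.0 ± 9.56 CPM. ALDOA, which cleaves fructose bisphosphate, went from 40.3 ± 3.20 to 18.6 ± 2.53 CPM, and the LDHB row from 11.5 ± 1.99 to 5.10 ± 1.03 CPM. The fitted log2 fold changes of these genes, ENO1 included, ranged from -1.45 for PGAM1 to -0.98 for PGK1. The early and late libraries overlapped for none of them.

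Of the muscle forms, ENO3 went the same way as the others and PGAM2 the opposite way. ENO3 was low in whole libraries, with 28.1 (ZZ) and 25.0 CPM (DZ) at E16, 24.3 and 21.4 CPM at E18, 14.3 and 12.55 CPM at E21, then 18.9 and 17.8 CPM at E28. Its log2 fold change, -0.62 ± 0.16 (SE), was the smallest fall of the 9. PGAM2 was nearly absent at E16, with 19 UMIs in the ZZ library and 33 in the DZ library, and reached 2106 to 3619 UMIs in the late libraries. In CPM, PGAM2 had 0.549 (ZZ) and 0.647 (DZ) at E16, 1.89 and 3.099 at E18, 44.2 (ZZ) and 45.2 (DZ) at E21, then 49.4 and 76.8 at E28. All 4 late values lay above all 4 early ones, and the fitted log2 fold change of PGAM2 was 5.13 ± 0.56 (SE). The myocyte gate, described below, held 1 (ZZ) and 0 cells (DZ) at E16, 41 and 71 at E18, and 169 to 605 in the late libraries. Its late sums held 1487 to 2584 UMIs of PGAM2. The part of myocyte numbers in the whole-library rise was not tested.

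**Figure D1:**
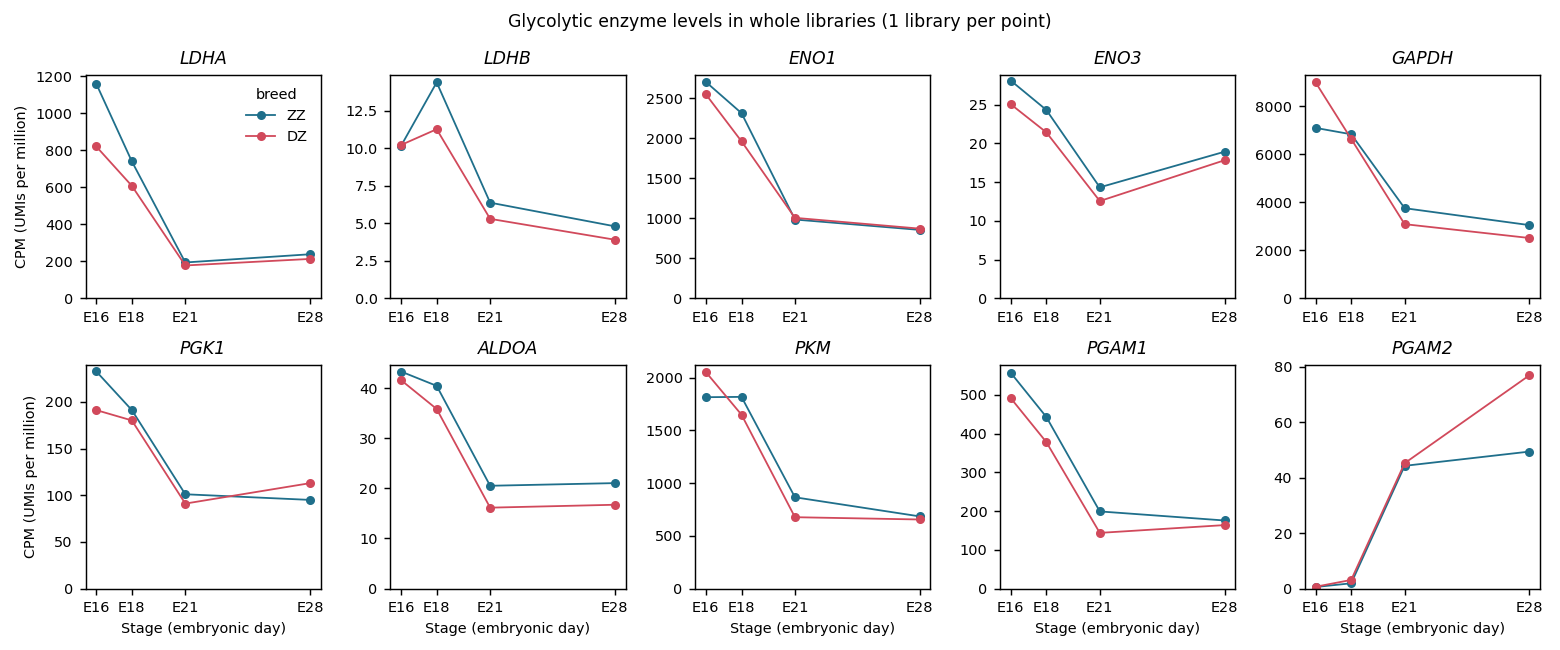
CPM of the 10 enzymes in whole libraries (y axis, linear, from 0) against embryonic day (x axis), with 1 point per library and 1 line per breed (ZZ Tibetan, DZ Duroc and Tibetan cross). Of the 10, 9 drop between E18 and E21, LDHA from 739 and 607 to 194 and 178 CPM, while PGAM2 rises to 76.8 CPM in E28-DZ.

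As background for these 10 genes, every late library lay below every early one for 19.9% of the 14683 genes tested, and above for 17.7%. Separate non-overlap is thus common in this comparison, and since the members were chosen with results known, nothing is read from their count of 9 below and 1 above.

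The step between E18 and E21 was the largest for all 10 genes. The log2 fold change of LDHA was -0.54 ± 0.13 (SE) from E16 to E18, -1.83 ± 0.14 from E18 to E21 and 0.27 ± 0.13 from E21 to E28. For ENO1 the same 3 steps were -0.30, -1.07 and -0.22, and for GAPDH -0.26, -0.95 and -0.31. PGAM2 stepped by 2.05 ± 0.25 (SE), 4.23 ± 0.21 and 0.44 ± 0.18. ENO3 fell by 0.74 on the log2 scale from E18 to E21 and was 0.44 ± 0.12 higher again at E28 than at E21. With 2 libraries a stage, some E28 steps turned sign with the library left out: PGK1 ran from 0.32 without E28-ZZ to -0.11 without E28-DZ, PGAM1 from 0.15 without E21-ZZ to -0.17 without E21-DZ, and ALDOA from 0.13 to -0.06 without the same libraries. The E28 step of PGAM2 ran from 0.75 without E21-ZZ to 0.16 without E21-DZ, and that of GAPDH from -0.15 without E21-ZZ to -0.46 without E21-DZ. PKM ran from -0.02 to -0.39 without the same libraries.

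The lower levels at late stages were also seen inside gates. Check markers were read over all libraries together, so whether a gate held the same kind of cells early and late was not tested. The chondrogenic sums, for instance, held 22 to 99 cells early and 821 to 1268 late. Fibroblast sums held 116 to 468 cells early and 913 to 2657 late. In the 8 gates with at least 3 early and 3 late libraries, the log2 fold change was negative for LDHA, ENO1, GAPDH, PGK1, PKM and PGAM1 in 8 of 8 gates, for ALDOA in 7 of 7 and for the LDHB row in 6 of 6 in which it had enough counts. LDHA ranged from -2.61 in the sclerotome gate to -0.50 in the erythroid gate, with a median of -2.11 over the gates. PKM had the narrowest range, from -1.45 to -1.04. PGK1 ranged from -1.28 in the sclerotome gate to -0.16 ± 0.33 (SE) in the erythroid gate, where it turned to 0.017 without E18-DZ.

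The size of the fall of a given enzyme differed between gates. In the neuron gate, ENO1 went from 1945 to 2322 CPM in the early libraries to 405 to 663 CPM in the late ones, the lowest ENO1 fold of the 8 gates (log2 -2.10 ± 0.18, SE). In the MYF5+ progenitor gate, which holds cells with the myogenic factor MYF5 and without MYOD1 or MYOG, ENO1 changed by -0.69 ± 0.17 and PGK1 by -0.36 ± 0.18. ENO3 was lower in 5 of 6 gates and fell most in the fibroblast gate. There it had 38.5 to 47.8 CPM early and 8.46 to 11.8 CPM late, in cells whose likeness between periods was not tested. In the chondrogenic gate its change, -0.15 ± 0.49 (SE), was within its error. It turned positive there without E16-ZZ (0.37), E21-ZZ (0.01) or E21-DZ (0.05). In the neural crest and glia gate ENO3 was at 0.42 ± 0.34 (SE), near the size of its error. The erythroid gate carried the smallest changes of LDHA, GAPDH and PGK1, and its sums held only 26 to 44 cells in the late libraries. Changes in this gate also depend on scaling: with library totals the median log2 fold change of all its genes moved from -0.01 to -0.62.

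**Figure D2:**
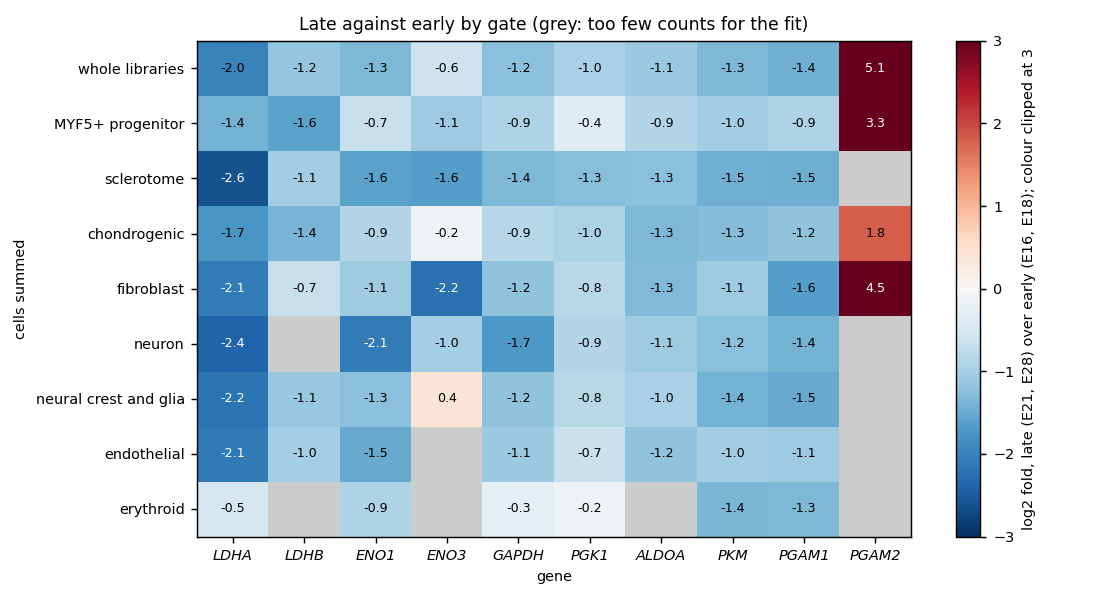
Fitted log2 fold change of each enzyme (columns), late over early, in whole libraries and in the 8 gates that could be fitted (rows), with the value printed in each cell. Blue is lower late and red is higher late: LDHA reads from -2.6 in the sclerotome gate to -0.5 in the erythroid gate. PGAM2 was fitted only in gates with counts in the late libraries, so its red gate cells follow from the filter.

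PGAM2 could be fitted between periods in 3 gates, all through the counts of their late libraries, so that a higher late level there was set by the filter on low counts and is given as values only. The early sums held 0 to 4 UMIs of PGAM2 in the MYF5+ progenitor gate, 0 to 2 in the fibroblast and 0 to 2 in the chondrogenic gate, and the late sums 25 to 38, 27 to 153 and 21 to 49. In CPM, PGAM2 of the fibroblast gate stood at 0 to 0.809 early and at 6.00 to 15.7 late. Other muscle RNA was present in the same sums. The late fibroblast sums held 20 to 321 UMIs of MYL1, a myosin light chain of fast muscle, and 50 to 551 UMIs of MYMK, the myoblast fusion protein Myomaker. In CPM, MYL1 of the fibroblast sums overlapped between early (6.26 to 29.1) and late (4.62 to 36.8), while MYMK went from 0 to 1.41 early to 10.3 to 63.1 late. PGAM2 came to 1.63 to 4.08 UMIs per 100 UMIs of ACTC1, an actin of embryonic muscle, in the late fibroblast sums, 7.20 to 12.6 in the chondrogenic and 3.32 to 6.52 in the myocyte sums. Per 100 UMIs of MYL1 it came to 42.7 to 135 in the fibroblast, 87.5 to 314 in the chondrogenic and 38.9 to 69.8 in the myocyte sums. The fibroblast and myocyte ranges overlapped on both measures, while the chondrogenic ranges lay above those of the myocytes. The late chondrogenic sums held only 7 to 56 UMIs of MYL1. The part that muscle RNA from other cells plays in the PGAM2 counts of these gates was not tested.

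Within the skeletal muscle lineage, ENO3 and PGAM2 were high in the myocyte gate and low before it. The gate required UMIs of at least 2 of MYMK, MYOG and MYH3, and its check markers, contractile genes, were at least 39.9-fold above the other cells. ENO3 was measured in myocytes at 163 (ZZ) and 171 CPM (DZ) at E18, 119 and 144 CPM at E21, and 127 and 97.6 CPM at E28. In MYF5+ progenitors ENO3 lay between 10.0 and 31.0 CPM over 8 libraries, and in the myoblast gate, cells with MYOD1 and without MYOG or MYMK, between 5.52 and 24.1 CPM over 4. All myocyte sums lay above both ranges, and 5.72% of the 9287 genes tested had every myocyte sum above every MYF5+ progenitor sum. In the fit with library as block, ENO3 was 3.02 ± 0.16 (SE) higher on the log2 scale in myocytes than in MYF5+ progenitors and 2.74 ± 0.23 higher than in myoblasts.

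PGAM2 in myocytes had 124 (ZZ) and 243 CPM (DZ) at E18, 1420 and 1560 CPM at E21, and 952 and 806 CPM at E28. The late myocyte sums were thus all above the E18 sums, with means of 1184 ± 363 (SD, n = 4) and 184 ± 84.5 CPM (n = 2), and the E28 values were below those of E21. Since 2 early libraries hold at least 20 myocytes, no test of period within myocytes was made. MYF5+ progenitors had 0 to 33.6 CPM of PGAM2 and myoblasts 21.9 to 32.2 CPM. The log2 fold change of PGAM2 was 5.73 ± 0.17 (SE) in myocytes over MYF5+ progenitors and 0.43 ± 0.26 in myoblasts over MYF5+ progenitors.

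The share of the muscle form within each pair was then taken from the UMIs of both forms, with exact binomial 95% intervals that cover counting error only. In myocytes, PGAM2 made up 32.6% of PGAM1 and PGAM2 UMIs in E18-ZZ (44 of 135; interval 24.8% to 41.2%) and 49.3% in E18-DZ (108 of 219; 42.5% to 56.1%). At E21 the share was 89.0% (ZZ) and 90.0% (DZ), and at E28 it was 85.6% (ZZ) and 82.6% (DZ; 2584 of 3128; 81.2% to 83.9%). In MYF5+ progenitors it was 0 of 76 UMIs in E16-ZZ (a count of 0 allows up to 3.95% by the limit of 3 counts, and 4.74% by the exact interval), 0 of 44 in E16-DZ, 0 of 377 in E18-ZZ and 4 of 221 in E18-DZ. The late MYF5+ progenitor sums had 8.35% to 11.04%. Gates outside muscle held PGAM2 shares of like size in some late sums, among them 7.10% and 8.51% in the E28 fibroblasts, 11.6% in neural crest and glia of E28-ZZ and 8.11% in neurons of E21-DZ, against 1.93% to 4.12% in the other late neuron sums. The share of late MYF5+ progenitors is thus not read as expression in these cells, since free RNA was not removed and its part was not tested. Both the rise of PGAM2 and the lower PGAM1 of late myocytes, 161 to 176.5 CPM against 250 and 256 CPM at E18, enter this share.

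The enolase pair behaved otherwise. ENO3 made up 7.61% of ENO1 and ENO3 UMIs in the myocytes of E18-ZZ (58 of 762; 5.83% to 9.73%) and 10.4% in E18-DZ (8.29% to 12.9%), and 5.01% to 5.91% in the 4 late libraries. ENO1 gave most of the enolase UMIs in every myocyte sum, with 1474 to 2288 CPM. In MYF5+ progenitors the ENO3 share was 0.711% to 1.497% over the 8 libraries. The share did not rise from E18 to the late stages as that of PGAM2 did. The intervals of E18-ZZ and of E21-ZZ, E21-DZ and E28-ZZ overlapped, while that of E18-DZ lay above all 4 late intervals.

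**Figure D3:**
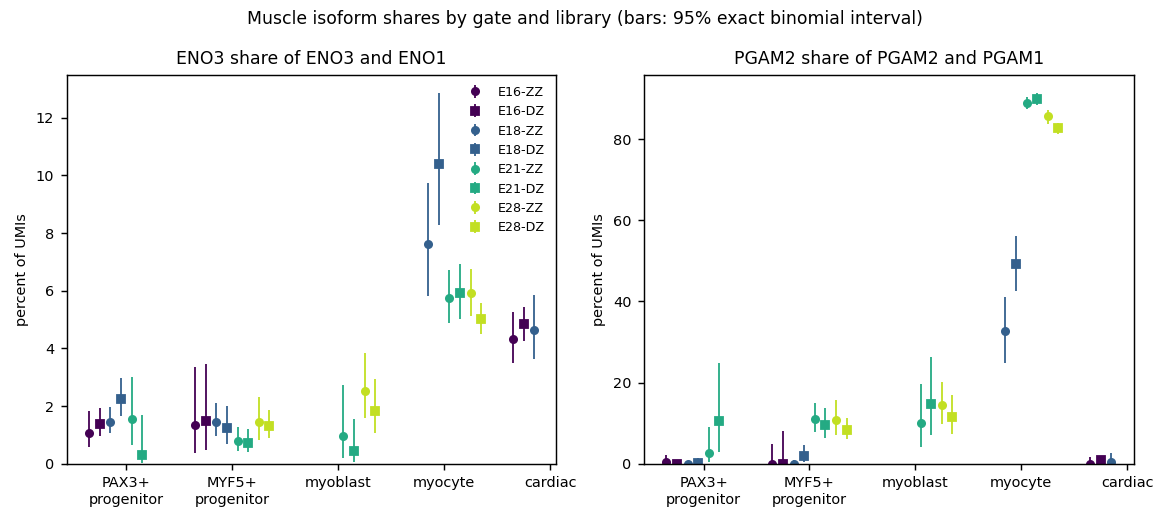
Percent of UMIs of an enzyme pair that came from the muscle form (y axis, from 0), ENO3 at left and PGAM2 at right, by gate (x axis), with 1 point per library and bars for the exact binomial 95% interval. PGAM2 passes from 32.6% and 49.3% in E18 myocytes to 82.6% to 90.0% in late ones, while ENO3 stays at or under 10.4% in every gate shown.

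The other enzymes differed far less along the lineage. In myocytes over MYF5+ progenitors the log2 fold change was 0.77 ± 0.17 (SE) for ALDOA, 0.45 ± 0.11 for ENO1, 0.32 ± 0.06 for GAPDH, 0.28 ± 0.11 for PGK1, 0.23 ± 0.11 for LDHA, 0.10 ± 0.34 for the LDHB row, 0.0047 ± 0.067 for PKM and -0.27 ± 0.11 for PGAM1. These small values depend on how libraries are scaled. Under scaling by library totals the median of all genes moved to -0.34, and LDHA (-0.08), PGK1 (-0.03), PKM (-0.29) and the LDHB row turned negative (LDHA also, at -0.009, with a mitochondrial limit of 5%), whereas ENO3 and PGAM2 stayed positive under every alternative tried. Of 9287 genes tested in this comparison, 42.8% were called, with 21.4% higher in myocytes. From PAX3+ to MYF5+ progenitors, LDHA differed by 0.42 ± 0.12 and GAPDH by -0.0084 ± 0.061.

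Among all gates, the cardiac gate had the highest early level of 8 of the 10 enzymes. The share of all genes that are highest in this gate was not computed, so nothing is read from this count. The gate required MYBPC3 and NKX2-5 and had at least 20 cells in E16-ZZ, E16-DZ and E18-ZZ only. LDHA had 1945 CPM in the cardiac sum of E16-ZZ, 1656 in E16-DZ and 1866 in E18-ZZ, while the next gate, neural crest and glia, spanned 677 to 1325 CPM. ENO1 had 5888, 5185 and 4582 CPM in the cardiac sums of E16-ZZ, E16-DZ and E18-ZZ, and no other gate passed 2822 CPM. PGK1 was at 545, 489 and 423 CPM, against at most 253 CPM elsewhere. GAPDH averaged 12050 ± 1700 CPM (SD, n = 3), and its lowest cardiac value, 10860, was below the highest neuron value, 11070, so that these 2 gates overlapped.

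The cardiac gate shared ENO3 with the myocytes but not PGAM2. Cardiac ENO3 stood at 265 CPM in E16-ZZ, 263 in E16-DZ and 223 in E18-ZZ, above the 163 and 171 CPM of early myocytes. ENO3 made up 4.31%, 4.84% and 4.64% of the enolase UMIs there. PGAM2 had 0 UMIs in the cardiac sum of E16-ZZ, 5 in E16-DZ and 1 in E18-ZZ, among 232, 637 and 216 UMIs of both mutases. PGAM1 in this gate, 650 to 705 CPM, was the highest of the early gates.

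In the late libraries the myocyte gate took the top place for LDHA (347 ± 44.7 CPM, SD, n = 4), ENO1 (2025 ± 188), GAPDH (3957 ± 388), PGK1 (154 ± 21.7), ALDOA (32.8 ± 6.45), ENO3 and PGAM2. How many of all genes are highest in late myocytes was not computed either, so nothing is read from the number of enzymes. For ENO1 the lowest myocyte value, 1848 CPM, was above every other late sum, the nearest being 1736 CPM in MYF5+ progenitors of E21-ZZ. For LDHA, GAPDH, PGK1 and ALDOA the myocyte range overlapped that of the next gate, so their order at the top is not set apart from the spread between libraries. PGAM1 and PKM were not highest in late myocytes. The erythroid gate had the lowest ENO1 in both periods, 797 to 932 CPM early and 298 to 428 CPM late.

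**Figure D4:**
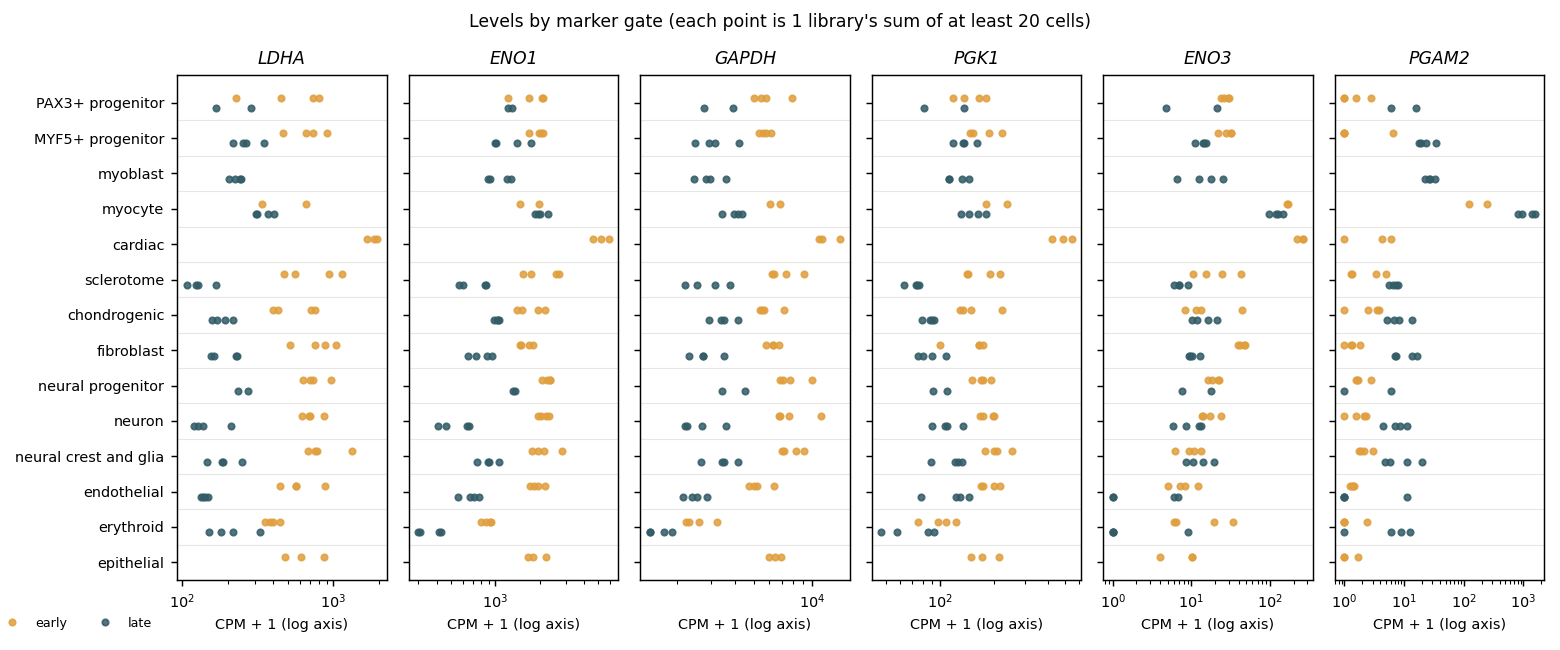
CPM plus 1 on a log axis (x) for 6 enzymes in the 14 gates (rows), with 1 point per library sum of at least 20 cells, early in orange and late in dark teal. The cardiac points of LDHA, ENO1 and PGK1 lie to the right of all other gates, and the myocyte points stand alone for PGAM2 at 124 to 1560 CPM.

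The gene with the most similar pattern over the 92 gate sums was another glycolytic enzyme for 7 of the 9 members with enough counts (Pearson correlation of log2(CPM + 10), among 5505 genes). The pairs were ENO1 with GAPDH (r = 0.909), GAPDH with PGAM1 (0.906), PKM with PGAM1 (0.885), LDHA with ENO1 (0.850), PGK1 with ENO1 (0.842) and ALDOA with LDHA (0.758). PGAM2 was closest to ARPP21 (0.968), to CHRNA1, a subunit of the muscle acetylcholine receptor (0.967), and to MYL1 (0.951). ENO3 was closest to GYG1, glycogenin, the primer of glycogen synthesis (0.867), then to MYH7, a slow and cardiac myosin heavy chain (0.847), and TNNC1, a cardiac and slow troponin C (0.844). The members were chosen with their levels over stages and gates in view, and each could be the match of another. Nothing is therefore read from the count of 7 of 9. Sums from 1 library share its cells, depth and stage, so these values describe likeness and were not tested.

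The other genes of the pathway were tested across all genes with the quasi-likelihood test of edgeR and Benjamini-Hochberg adjustment. Their lists were set with earlier results of these data known. Counts and medians of a list, here and below, are therefore description and no independent evidence. In whole libraries 34.4% of the 14683 genes were called between late and early, with 16.7% higher and 17.7% lower late. Of 12 other glycolysis genes, 7 fell and 0 rose, with a median log2 fold change of -0.83 against 0.02 over all genes. HK2, the hexokinase that traps glucose, fell by 1.80 ± 0.25 on the log2 scale (SE, adjusted p = 0.00311). PFKL and PFKP, subunits of phosphofructokinase, fell by 1.17 ± 0.17 and 1.45 ± 0.31, and TPI1, triose phosphate isomerase, by 0.91 ± 0.17. PKLR, the liver and red cell pyruvate kinase, fell by 1.91 ± 0.45. PFKL and TPI1 were each called lower in 6 of 8 gates, PFKP in 0 of 5 (-1.47 to 0.68), and PKLR was not called in the erythroid gate, the only one in which it could be fitted (0.27 ± 0.26). Erythroid cells made up 1.14% to 1.93% of early and 0.263% to 0.478% of late cells, and their part in the whole-library fall of PKLR was not tested.

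Of the 3 measured lactate transporters 2 fell. SLC16A3 (MCT4), the exporter of lactate, fell by 2.42 ± 0.23 on the log2 scale (SE, adjusted p = 0.00162 by edgeR) and SLC16A1 (MCT1) by 1.35 ± 0.20 (adjusted p = 0.00344), while SLC16A7 (MCT2) was not called (-0.61 ± 0.22, adjusted p = 0.0596). Of the 6 measured transport genes 3 fell and 1 rose, SLC2A4, the insulin-sensitive glucose transporter, being lower and SLC2A10 higher. Within gates SLC16A3 was called lower late in 7 of 7 gates in which it could be fitted, and HK2 and SLC16A1 were each called lower in 6 of 7. Over the 8 gates, other glycolysis genes gave 24 lower and 2 higher calls among 56 tests of a gene in a gate, where 10.7% of all such tests were lower calls and 11.5% higher calls.

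At the entry of pyruvate into mitochondria 6 of 11 genes fell and 1 rose. PDK1 and PDK4, kinases that switch off pyruvate dehydrogenase, fell by 1.45 ± 0.19 and 1.44 ± 0.33 on the log2 scale (SE), and PDHA1 and DLAT, subunits of the dehydrogenase complex, by 0.78 ± 0.13 and 0.66 ± 0.10. PDK2, another such kinase, rose by 1.22 ± 0.19. Within gates PDK1 was called lower in 6 of 8, while PDK4 was fitted only in the fibroblast gate and not called there (-0.0057 ± 0.56). Of 17 hypoxia-response genes outside glycolysis, 5 fell and 2 rose, where 34.4% of all genes were called, and within gates this list gave 20 lower and 13 higher calls among 98 tests. EPAS1 (HIF2A) had a log2 fold change of -1.78 ± 0.35 in whole libraries, -6.52 ± 0.26 in the fibroblast gate and 2.60 ± 0.38 in the endothelial gate, and endothelial cells made up 1.98% to 8.42% of early and 0.424% to 0.841% of late cells; their part in the EPAS1 level was not tested. In whole libraries P4HA2 had a log2 fold change of -0.94 ± 0.16 and BNIP3 one of -0.89 ± 0.17, while MXI1 rose by 1.08 ± 0.15 and INSIG2 by 0.84 ± 0.16. Of 14 glycogen and fructose-bisphosphate control genes 3 fell, PYGL most, by 1.88 ± 0.25, and 0 rose, against 17.7% of all genes called lower. Among 8 common reference genes 3 fell, HPRT1 (-1.23 ± 0.14), SDHA (-0.41 ± 0.11) and RPLP0 (-0.39 ± 0.11), and 1 rose. All 32 genes of these lists that were called kept their direction under every alternative that fitted them, but 11 of them remained called without the E16 libraries, 17 without the E28 libraries and 20 without E16-DZ.

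In myocytes against MYF5+ progenitors the glycogen and fructose-bisphosphate control genes had the highest median of the 6 lists. Of 9 tested, 5 rose and 2 fell, where 42.8% of all genes were called, with a median log2 fold change of 0.95 against -0.03 over all genes. GYS1, the glycogen synthase of muscle, rose by 2.37 ± 0.23 (SE, adjusted p = 1.18e-09 by edgeR) and PYGM, the phosphorylase of muscle, by 2.19 ± 0.18. PYGL and PYGB, the liver and brain forms of phosphorylase, fell by 2.80 ± 0.56 and 1.19 ± 0.44. Glycolysis genes outside the members gave 1 rise, PFKP (2.31 ± 0.41), and 4 falls of 8 tested, ENO2 (-1.88 ± 0.64), PFKL (-0.84 ± 0.15), HK1 (-0.37 ± 0.14) and GPI (-0.35 ± 0.11).

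Both tested lactate transporters fell in myocytes, SLC16A1 by 0.92 ± 0.20 and SLC16A3 by 0.81 ± 0.16 on the log2 scale (SE). MPC2, a subunit of the mitochondrial pyruvate carrier, rose by 0.83 ± 0.13, the only call among 10 genes of pyruvate entry. Of 13 hypoxia-response genes 3 rose and 3 fell, a share near the 42.8% called among all genes, and EGLN3, an oxygen-sensing prolyl hydroxylase, rose most (3.26 ± 0.31). Of the 25 list genes called in this comparison, 15 remained called without the E28 libraries (23 fitted) and 8 after thinning cells to 1500 UMIs (11 fitted). Of 8 reference genes 2 rose, YWHAZ (1.54 ± 0.14) and RPLP0 (0.40 ± 0.06), and 2 fell, among them B2M (-2.14 ± 0.39).

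The breeds, which the rule does not name, were compared with stage as block. None of the 10 enzymes was called in whole libraries by edgeR, where 0.0% of 15119 genes were called and 918 had an unadjusted p under 0.05, and none by DESeq2, which called 57 genes. Of the 10, 9 had lower and 1 had higher fitted levels in DZ, and 4 had an unadjusted p under 0.05. LDHA was lower in DZ in all 4 stages, by 0.28 on the log2 scale (95% interval -0.50 to -0.06, adjusted p = 0.792 by edgeR). The LDHA gap was widest at E16, with 1159 CPM in ZZ and 820 CPM in DZ. E16-ZZ is the library with 39.2% of its barcodes over the mitochondrial limit. PGAM1 differed by -0.26 (-0.47 to -0.04), ALDOA by -0.24 (-0.45 to -0.02) and PGAM2 by 0.40 (0.06 to 0.75). The intervals of the other 6 held 0, the widest being that of GAPDH, -0.40 to 0.24.

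Within the 11 gates that could be compared, no enzyme was called between breeds in any gate by edgeR, nor by DESeq2 among those it gave an adjusted p (all but 2 in the fibroblast gate), where edgeR called 0.0822% of all tests of a gene in a gate. LDHA was lower in DZ in 11 of 11 gates, from -0.63 to -0.02 on the log2 scale, PKM in 11 of 11, from -0.17 to -0.0021, and ALDOA in 10 of 10. The lowest adjusted p of a member by edgeR was 0.37, for LDHA in the PAX3+ progenitor gate (-0.63, 95% interval -0.95 to -0.32), where 0.0% of genes were called. The gates share libraries, so their signs are not independent. PGAM2 differed by 0.17 ± 0.20 (SE, log2) in myocytes, where DZ was above ZZ at E18 and E21 and below it at E28 in the values given for that gate.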

How the data were processed

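For the 10x Chromium libraries the authors obtained UMI counts, deposited without normalization, from Cell Ranger (3.1.0 for the 2 E16 matrices and 3.0.2 for the other 6, per the file headers) on Sscrofa11.1 with Ensembl release 98. The deposited counts are not corrected between libraries. Of 90688 barcodes, cells were kept at 200 genes or above, at most 30000 UMIs and at most 10% mitochondrial UMIs, the limits the study gives. Barcodes with the highest Scrublet scores (scanpy 1.11.5), 0.8% per 1000 barcodes, were then removed as doublets (8247), which left 74147 cells. The members and the gene lists were chosen with earlier results of these data known.

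Cells were gated by 1 UMI of marker genes, and a cell in several gates (4.72%) entered none. Markers not found in the gene lists were dropped (among them HEMGN, MYL7, NEFM, NPPA, S100B, SOX1, SOX2, TTN and TWIST1), so the neural progenitor gate rests on PAX6 without neuron markers and the cardiac gate on MYBPC3 with NKX2-5. Of the list genes SLC2A1, SLC2A3, BSG, MPC1, TBP and PPIA were not analysed here, and EGLN1 and SDHA were found by gene ID. Free RNA in droplets was not removed.

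Counts were summed per library, and per gate and library with at least 20 cells, and fitted with edgeR 4.0.16 (R 4.3.3): TMM scaling, filterByExpr, quasi-likelihood test, Benjamini-Hochberg threshold 0.05 over all genes tested. Period was fitted with breed, breed with stage as block, and gates with library as block. CPM are UMIs scaled to 1000000 per TMM-adjusted library and are not divided by transcript length, so levels were compared within a gene, and the shares of paired forms are shares of UMIs. Alternatives covered doublets, the mitochondrial limit, UMIs per cell, thinning to 1500 UMIs, scaling, DESeq2 1.42.0, the count filter, cells per sum, gates at 2 UMIs and left-out libraries. No group had a replicate, so p-values of the period fits measure the spread between libraries of different stages that breed and period leave. Those of the breed fits measure the spread left after stage and breed. Those of the gate fits measure how far gate differences vary between libraries. The steps were checked on simulated counts. Of genes changed 1.5-fold, 2-fold and 4-fold, 4.69%, 21.4% and 74.2% were called between periods in whole libraries (14683 genes). Between breeds 19.7%, 50.8% and 81.4% were called (15119 genes). The simulation between periods changed only 64, 70 and 66 genes at these folds, while 34.4% of genes were called in the data. Its rates therefore do not carry over to that comparison. Named were all members and, of each list, up to 5 called genes with the largest change, and a few that this rule names are not reported here.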

Additional observations from a re-analysis of the deposited data

Results flagged for a closer look

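Each enzyme's 4 early and 4 late whole-library levels were examined for a library far from the others, 20 groups in all, and 2 were marked by Dixon's 95% critical value, which by its construction marks about 1 in 20 groups of like samples by chance. The libraries of a period differ in stage and breed, so this rate is nominal and was not tested here. PKM in E21-ZZ, at 865 CPM, stood above the other late libraries, which had 655 to 684 CPM. PGAM2 in E28-DZ, at 76.8 CPM, stood above the other late libraries, which had 44.2 to 49.4 CPM, and E28-DZ also held the most gated myocytes, 605 against 169 to 282 in the other late libraries. Their part in the whole-library level of PGAM2 was not tested, and in the myocyte gate itself E28-DZ had the lowest PGAM2 of the late libraries, 806 CPM.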

How the results depend on the processing

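The labels give no replicate numbers, and the breed fits held stage as a block, which sets ZZ beside DZ within each stage. Of 1294 alternative values of the members' late-against-early folds, in whole libraries and in gates, 4 had another sign than the value reported, for ENO3 in the chondrogenic gate and PGK1 in the erythroid gate. Genes called between late and early in whole libraries numbered 5048, with 1338 without the E16 libraries, 2552 without the E28 libraries and 2965 to 4680 with 1 library left out, the lowest without E16-DZ. From E16 to E18 the count was 711, against 52 with a mitochondrial limit of 5% and 2145 by DESeq2, and 17 to 989 with 1 library left out. From E18 to E21 it was 3198 (373 to 3464 with 1 left out), and from E21 to E28 1290 (327 to 982), against 2298 by DESeq2. Between breeds in whole libraries 0 genes were called, 1 without doublet removal, 1 without the count filter, 57 by DESeq2 and 0 with any 1 library left out. Between myocytes and MYF5+ progenitors 3971 genes were called, 1318 after thinning cells to 1500 UMIs, which left fewer cells and genes, and 3308 to 4029 with 1 library left out. Over all gates 15.3% to 21.6% of genes were called between periods with 1 library left out. Between breeds it was 0.0666% to 0.147%, and it was 0.146% with the mitochondrial limit of 5%, 0.154% after thinning, 0.0446% by DESeq2, 0.53% without the filter and 0.147% without E16. The breed difference of GAPDH in whole libraries ranged from -0.2122 to 0.0072 with 1 library left out (0.0011 without E21-ZZ, 0.00064 without E21-DZ), and that of PGK1 to 0.0014 without E16, and neither was called. Scaling by library totals moved the median log2 fold change of all genes between periods from 0.02 to 0.20 and the share of higher calls from 48.5% to 66.1%, and in myocytes against MYF5+ progenitors from 50.01% to 22.7%. The causes of these changes were not tested. Low counts limit the LDHB row and PGAM2 outside myocytes.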
